A study of Mus musculus with 6 samples.

Results

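The genes described are the EGF receptor family and its ligands: the receptors Egfr, Erbb2 and Erbb3, and the ligands Areg (amphiregulin), Btc (betacellulin), Tgfa (transforming growth factor alpha), Hbegf (heparin-binding EGF-like growth factor), Egf (epidermal growth factor), Ereg (epiregulin) and Epgn (epigen). They were taken by their GENCODE GRCm38 symbols, and all 10 were found among the 49585 gene identifiers of each count table. RNA-seq read counts were available for 6 libraries of tumoroids, cultures in which adenoma cells from the intestine of C57BL/6 mice grew in Matrigel. The 3 KO libraries were IKKa FL/FL, and the 3 WT libraries IKKa +/+, both on the background APC min/+ with Villin-Cre. By these labels, both genotypes carried 1 Apc copy with the Min mutation. Both also carried a Cre recombinase under the promoter of Villin, a gene expressed in gut epithelium. They differed in the floxed alleles of Chuk, the gene of the kinase IKKa. The state of the other Apc copy in the cultured adenoma cells was not examined. By its title, the study asks about IKKa of the intestine in the initiation of tumours in Apc mutant mice. EGF itself was a component of the medium of all cultures, at 50 ng/ml, beside basic FGF at 20 ng/ml, Noggin at 100 ng/ml, R-spondin at 100 ng/ml and the ROCK inhibitor Y27632 at 140 nM. The labels speak of biological replicates but name no mice or cultures behind them, so a p-value here measures the spread among 6 libraries, and that spread may be technical.

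Members of the ErbB family are receptor tyrosine kinases that act as dimers. EGFR binds EGF, TGF-alpha, amphiregulin, betacellulin, HB-EGF, epiregulin and epigen, ERBB2 has no known ligand of its own and serves as a dimer partner, and ERBB3 binds neuregulins and has little kinase activity, so that it signals through its partners. The ligands are made as membrane proteins and are cut free by proteases, and the activated receptors feed the Ras-ERK and PI3K-Akt pathways. In the intestine, EGFR signalling is known for driving proliferation of crypt cells, and EGF is a usual additive to organoid medium.

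Library totals were 26785922 to 31875723 counts in KO and 20749747 to 29752507 counts in WT. Levels are given as CPM, counts relative to the TMM-scaled library size, and 1 CPM stood for 20.7 to 31.7 counts. Chuk (ENSMUSG00000025199, chr19:44073335-44107480, minus strand), the check of the labels, had 28.9, 24.4 and 34.9 CPM in the KO libraries, against 101, 106 and 95.7 CPM in the WT libraries. Its log2 fold change of KO over WT was -1.77 (SE 0.12, edgeR adjusted p = 8.6e-08), and counts of whole genes cannot show the floxed exons alone. KO replicate 2 stood apart from the other KO libraries, with a chi-square per degree of freedom of 36.4 and 37.0 against them, where KO replicates 1 and 3 had 5.64 between themselves. The genotypes also differed in sex-linked RNA: Xist had 6 counts in KO against 95406 in WT, and 4 Y-linked genes had 17527 counts in KO against 1 in WT, so genotype and sex cannot be told apart. No member lies on chromosome X or Y. Mitochondrial transcripts took 2.15% to 3.46% of the counts in KO and 6.18% to 7.58% in WT. The 685 genes of chromosome 5 with at least 5 CPM had a median log2 fold change of 0.40, against -0.03 for 9363 genes of the other autosomes, and Areg, Btc, Ereg and Epgn lie on chromosome 5.

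Of the 10 genes, Egfr and the ligand genes Areg, Btc, Tgfa and Hbegf rose in KO tumoroids, and Erbb3 fell. Erbb2, Egf and Ereg did not pass the test (edgeR quasi-likelihood test with Benjamini-Hochberg adjustment over 13759 genes, threshold 0.05), and Epgn had too few counts to be tested. Each of the 5 genes that rose had every KO library above every WT library, and Erbb3 had every KO library below. The rises ran from 1.53-fold for Hbegf to 6.43-fold for Areg, and the fall of Erbb3 was 1.39-fold. Changes were common in this comparison. Over all genes tested, 57.4% were called, 30.4% higher and 27% lower, and 63.1% had no overlap between the genotypes, 32.7% with KO above and 30.4% with KO below. Of all genes tested, 9.32% were called higher with a log2 fold change of at least 1.94. That cut-off is the value of Tgfa, so Tgfa, Areg, Btc and Egfr reach it by its choice. The 9 genes tested had a median log2 fold change of 1.85, beside 0.00 over all genes tested. That median is the value of Ereg itself, which was not called and passed the filter on low counts through the KO libraries. It therefore says little about the family as a set. Egf passed the filter through libraries of both genotypes. In bulk RNA, fewer cells of a type and less RNA per cell cannot be told apart.

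**Figure D1:**
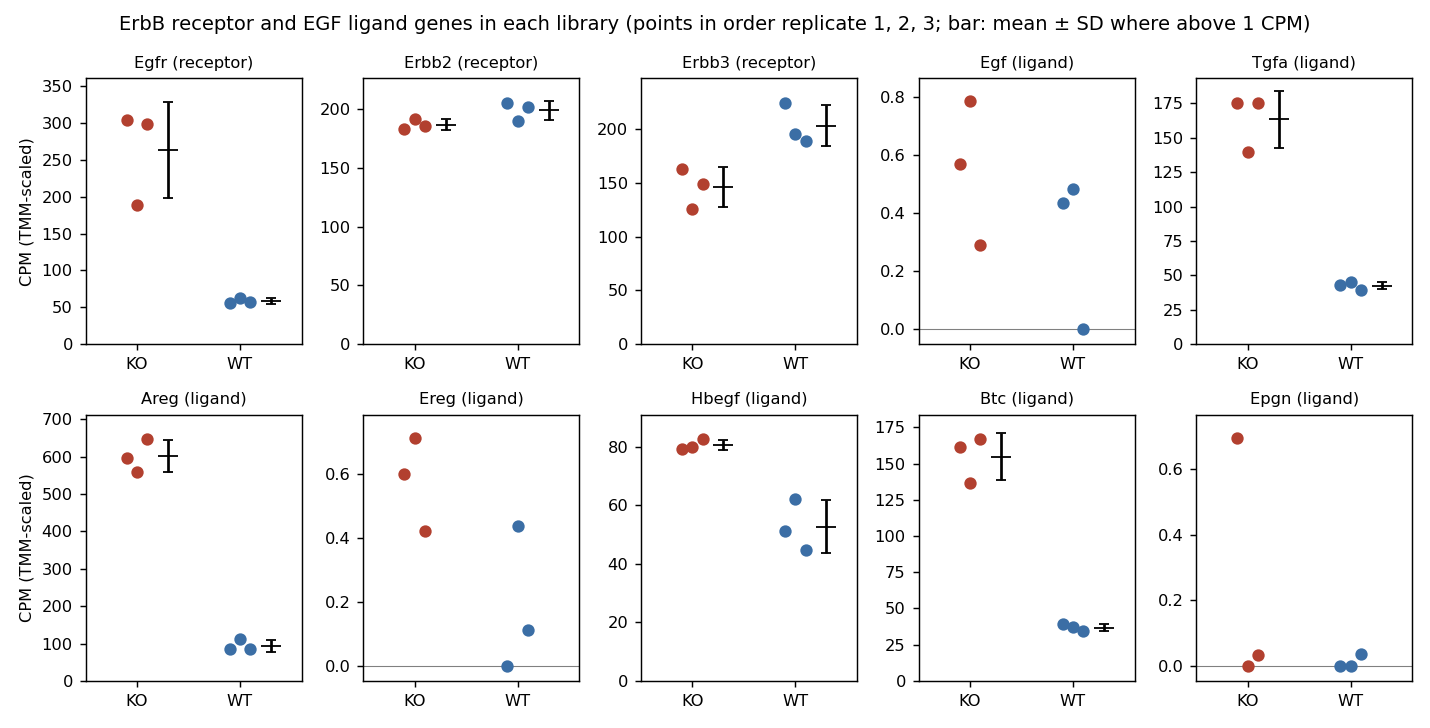
Level of each receptor and ligand gene in CPM on a linear axis of its own, with 1 point for each of the 3 KO and 3 WT libraries in the order of their replicate numbers and the mean ± SD beside them for genes above 1 CPM. Egfr, Areg, Btc, Tgfa and Hbegf have all KO points above all WT points, Erbb3 has them below, and the points of Erbb2 overlap.

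Egfr, the gene of the EGF receptor (ENSMUSG00000020122, chr11:16752203-16918158, plus strand), had 303, 188 and 298 CPM in the KO libraries, against 55.6, 62.7 and 56.6 CPM in the WT libraries. The lowest KO library held more than any WT library, and KO replicate 2 lay below the other KO libraries. The means were 263 ± 64.8 CPM in KO and 58.3 ± 3.86 CPM in WT (SD, n = 3 each), a log2 fold change of 2.18 (SE 0.15, 95% interval 1.84 to 2.51, edgeR adjusted p = 1.76e-07) or 4.53-fold. KO replicate 2 was 37.3% below the mean of the other KO libraries, and 2.86% of 10338 genes with at least 5 CPM had a lower ratio. Without it the rise was 5.08-fold. In the same library Tgfa was 20.3% lower than in the other KO libraries, Erbb3 19.4%, Btc 16.8% and Areg 9.99%, whereas Erbb2 was 4.04% higher. An antisense gene, Egfros, overlaps Egfr and had 286 counts in KO and 70 in WT. Whether the counting used strand is not given in the sources used here, so reads of the overlapping part cannot be told apart, and the same holds for Erbb2 and its opposite-strand neighbour Mien1 (3381 counts in KO and 2813 in WT).

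Erbb2, the gene of the ligandless partner receptor (ENSMUSG00000062312, chr11:98412470-98437716, plus strand), had 183, 192 and 185 CPM in the KO libraries, against 205, 190.0 and 201 CPM in the WT libraries. The groups overlapped. The means were 187 ± 4.46 CPM in KO and 199 ± 8.01 CPM in WT, and the log2 fold change of -0.09 (SE 0.07, edgeR adjusted p = 0.284) had a 95% interval of -0.25 to 0.06.

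Erbb3, the gene of the neuregulin receptor (ENSMUSG00000018166, chr10:128567523-128589652, minus strand), had 163, 126 and 149 CPM in the KO libraries, against 225, 196 and 189 CPM in the WT libraries. Every KO library lay below every WT library, and KO replicate 2 was the lowest of the 6. The means were 146 ± 18.8 CPM in KO and 203 ± 18.8 CPM in WT, and Erbb3 fell by 0.48 on the log2 scale (SE 0.10, 95% interval -0.70 to -0.25, edgeR adjusted p = 0.00166). The 3 receptor genes thus moved in different ways: Egfr rose, Erbb3 fell and Erbb2 did not pass the test.

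The levels of different genes are set side by side as CPM per kb of merged exon length. In KO tumoroids Erbb2 had 35.8 ± 0.856 CPM per kb, Erbb3 24.3 ± 3.12 and Egfr 23.2 ± 5.73, and Erbb3 and Egfr did not differ beyond their spread. In WT tumoroids Erbb2 had 38.2 ± 1.54 CPM per kb, Erbb3 33.8 ± 3.13 and Egfr 5.15 ± 0.340, with Erbb2 and Erbb3 overlapping between libraries. Egfr was the least abundant receptor transcript in every WT library. It made up 30.1%, 22.4% and 30.4% of the summed receptor level in the KO libraries, against 6.01%, 7.43% and 6.65% in the WT libraries (exact two-sided permutation test, p = 0.1, the smallest that 3 against 3 libraries allow). The share of Erbb3 was 29.0% ± 1.22 in KO and 43.7% ± 1.92 in WT (exact permutation p = 0.1), and that of Erbb2 43.3% ± 5.39 in KO and 49.6% ± 1.69 in WT (exact permutation p = 0.3). The summed receptor level was 83.3 ± 7.88 CPM per kb in KO and 77.1 ± 3.96 CPM per kb in WT, with overlapping libraries (exact permutation p = 0.4). With coding length in place of exon length, Egfr took 44.7% in KO and 13.2% in WT and became the largest mean share in KO, ahead of Erbb2 at 32.1% and Erbb3 at 23.2%. The summed level was then 157 ± 20.7 CPM per kb in KO and 119 ± 5.47 CPM per kb in WT (exact permutation p = 0.1), so the order of the receptors in KO and the change of their sum depend on the length used. So does the Erbb2 share, which with coding length was 32.1% in KO and 44.4% in WT, without overlap (exact permutation p = 0.1).

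**Figure D2:**
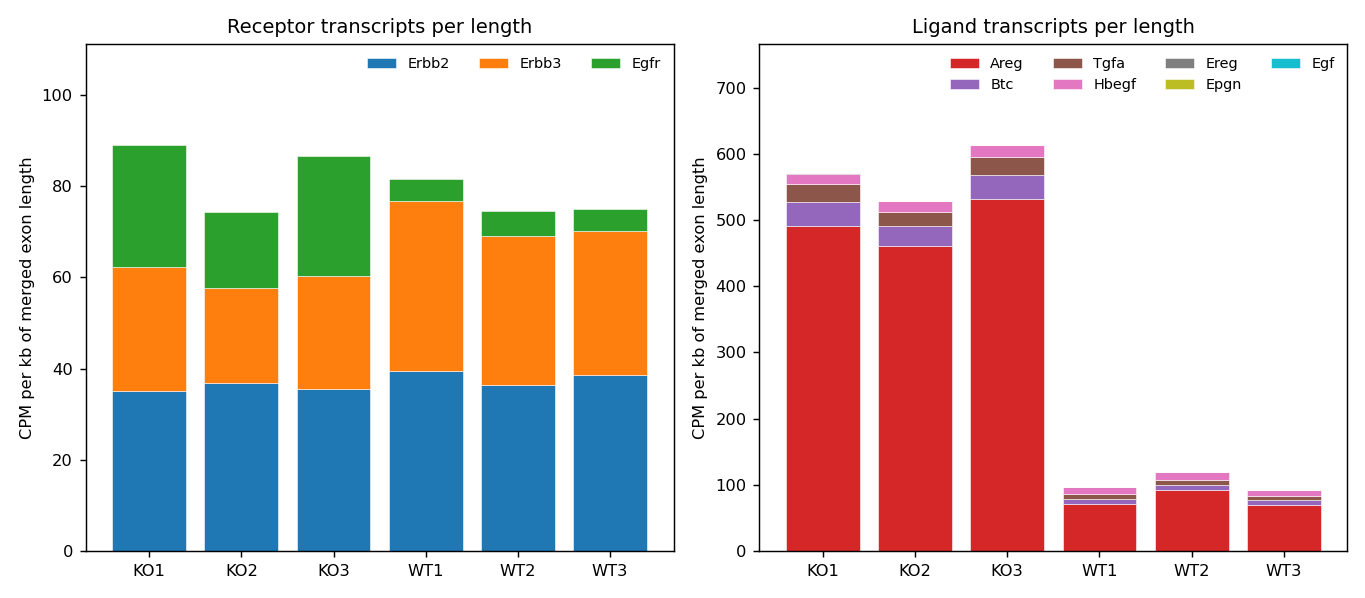
Level of the 3 receptor genes (left) and the 7 ligand genes (right) in CPM per kb of merged exon length, stacked in 1 bar per library. The receptor bars reach 74.3 to 89.0 in KO and 74.5 to 81.7 in WT, the ligand bars 529 to 613 in KO and 92.7 to 120 in WT. Egfr takes 22.4% to 30.4% of the receptor bars in KO and 6.01% to 7.43% in WT, and Areg takes 86.1% to 87.1% of the ligand bars in KO and 73.1% to 76.5% in WT.

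Areg, Btc and Tgfa were the ligand genes with the largest rises, and their promoters are shown with that of Egfr because these 4 genes had the largest fold changes among the 9 genes tested. The 250 bases before each start are from the RefSeq table of GRCm38.p6, which holds 7 of the 10 genes, written along the gene's strand, with motif matches in capitals.
Areg (chr5:91139349-91139598, plus strand): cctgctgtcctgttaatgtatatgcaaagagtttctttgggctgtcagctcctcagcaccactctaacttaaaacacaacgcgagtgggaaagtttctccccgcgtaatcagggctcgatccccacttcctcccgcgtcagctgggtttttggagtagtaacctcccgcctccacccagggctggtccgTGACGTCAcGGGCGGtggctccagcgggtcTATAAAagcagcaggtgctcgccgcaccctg
Btc (chr5:91402995-91403244, minus strand): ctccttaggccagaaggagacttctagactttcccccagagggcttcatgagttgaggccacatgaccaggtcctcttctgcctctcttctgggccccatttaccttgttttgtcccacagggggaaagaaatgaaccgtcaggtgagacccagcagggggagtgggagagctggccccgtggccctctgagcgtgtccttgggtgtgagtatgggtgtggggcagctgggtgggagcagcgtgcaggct
Tgfa (chr6:86194972-86195221, plus strand): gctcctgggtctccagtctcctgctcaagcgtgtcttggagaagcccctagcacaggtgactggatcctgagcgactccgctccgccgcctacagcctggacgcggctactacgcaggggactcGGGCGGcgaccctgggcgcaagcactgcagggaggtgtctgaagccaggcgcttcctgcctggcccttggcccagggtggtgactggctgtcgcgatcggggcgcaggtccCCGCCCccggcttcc
Egfr (chr11:16751953-16752202, plus strand): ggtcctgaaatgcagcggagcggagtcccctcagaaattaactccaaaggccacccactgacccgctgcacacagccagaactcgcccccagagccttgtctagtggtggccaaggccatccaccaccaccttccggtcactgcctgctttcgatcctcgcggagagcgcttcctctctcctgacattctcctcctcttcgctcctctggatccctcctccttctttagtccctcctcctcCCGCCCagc
Motifs were searched on both strands: the cyclic AMP response element TGACGTCA, the TATA box TATAAA, the GC box GGGCGG, the AP-1 site TGANTCA and the kappaB site by its consensus. The Areg window held a cyclic AMP response element 61 to 54 bases before the start, a GC box 52 to 47 bases before it and a TATA box 31 to 26 bases before it. The Tgfa window held GC boxes 126 to 121 bases and, on the reverse strand as CCGCCC, 15 to 10 bases before the start. The Egfr window held 1 on the reverse strand, 9 to 4 bases before the start, and the Btc window held none of the 5 motifs. The AP-1 and kappaB motifs were in none of these 4 windows. Over all 32851 promoters of this length, 1.55% held the cyclic AMP response element, 12.4% the TATA box, 32.7% the GC box, 6.75% the AP-1 motif and 7.25% the kappaB motif. The 4 windows shared no motif of this search.

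Areg, the gene of amphiregulin, a ligand of EGFR (ENSMUSG00000029378, chr5:91139599-91148432, plus strand), had 597, 559 and 646 CPM in the KO libraries, against 85.3, 111 and 84.7 CPM in the WT libraries. The KO libraries were close together and all far above WT. The means were 601 ± 43.5 CPM in KO and 93.7 ± 15.1 CPM in WT, a log2 fold change of 2.68 (SE 0.11, 95% interval 2.45 to 2.92, edgeR adjusted p = 1.12e-09) or 6.43-fold. It was the most abundant ligand transcript in all 6 libraries, per kb of exon and per kb of coding sequence.

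Btc, the gene of betacellulin, a ligand known to bind EGFR and ERBB4 (ENSMUSG00000082361, chr5:91357261-91402994, minus strand), had 161, 136 and 167 CPM in the KO libraries, against 39.0, 36.9 and 34.6 CPM in the WT libraries. The groups were well apart, with KO replicate 2 the lowest KO library. The means were 155 ± 16.1 CPM in KO and 36.8 ± 2.18 CPM in WT, a log2 fold change of 2.07 (SE 0.10, 95% interval 1.86 to 2.28, edgeR adjusted p = 4.09e-09) or 4.20-fold.

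Tgfa, the gene of TGF-alpha, a ligand of EGFR (ENSMUSG00000029999, chr6:86195223-86275719, plus strand), had 175, 140 and 176 CPM in the KO libraries, against 42.9, 45.0 and 39.7 CPM in the WT libraries. All KO libraries lay above all WT libraries. The means were 163 ± 20.5 CPM in KO and 42.5 ± 2.70 CPM in WT, a log2 fold change of 1.94 (SE 0.10, 95% interval 1.72 to 2.17, edgeR adjusted p = 1.22e-08) or 3.85-fold.

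Hbegf, the gene of HB-EGF, which binds EGFR and ERBB4 (ENSMUSG00000024486, chr18:36504927-36515805, minus strand), had 79.2, 79.8 and 82.5 CPM in the KO libraries, against 51.2, 62.3 and 44.6 CPM in the WT libraries. The KO libraries were nearly equal and all above WT. The means were 80.5 ± 1.78 CPM in KO and 52.7 ± 8.93 CPM in WT, a log2 fold change of 0.62 (SE 0.11, 95% interval 0.37 to 0.86, edgeR adjusted p = 4.8e-04) or 1.53-fold. Hbegf had the smallest rise of the 4 ligand genes called higher, and its interval lay below those of the other 3.

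Egf, Ereg and Epgn were near the limit of detection. Egf (ENSMUSG00000028017, chr3:129677565-129755316, minus strand), the gene of the factor that was added to the medium as protein, had 18, 21 and 9 counts in the KO libraries, against 13, 10 and 0 counts in the WT libraries. Its log2 fold change was 0.85 (SE 0.77, 95% interval -0.83 to 2.52, edgeR adjusted p = 0.353), and the groups overlapped. Ereg (ENSMUSG00000029377, chr5:91074622-91093646, plus strand), the gene of epiregulin, a ligand of EGFR and ERBB4, had 19, 19 and 13 counts in the KO libraries, against 0, 9 and 3 counts in the WT libraries. Its CPM overlapped between genotypes, at 0.600, 0.711 and 0.419 CPM in KO, against 0, 0.436 and 0.111 CPM in WT. The log2 fold change was 1.85 (SE 0.93, 95% interval -0.16 to 3.86, edgeR adjusted p = 0.0704). Ereg passed the threshold without WT replicate 2 (10.1-fold, adjusted p = 0.0210) and with limma voom (6.10-fold, adjusted p = 0.0395), and without WT replicate 1 it was 2.23-fold with an adjusted p of 0.235. An antisense gene, Gm19610, overlaps Ereg and had 4 counts in KO and 0 in WT. Epgn (ENSMUSG00000035020, chr5:91027464-91035215, plus strand), the gene of epigen, had 22, 0 and 1 counts in the KO libraries, against 0, 0 and 1 counts in the WT libraries. That is a ratio of pooled CPM of 19.9 with a 95% interval of 3.24 to 821 that covers counting error only, and 22 of the 23 KO counts came from KO replicate 1. At these depths 3 counts correspond to 0.0947 to 0.145 CPM in a library.

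Per kb of merged exon, the ligands in KO ran from Areg at 495 ± 35.8 CPM per kb over Btc at 34.3 ± 3.57, Tgfa at 25.2 ± 3.16 and Hbegf at 16.6 ± 0.369 to Ereg, Epgn and Egf at 0.140, 0.134 and 0.0486. In WT they ran from Areg at 77.1 ± 12.4 CPM per kb over Hbegf at 10.9 ± 1.85, Btc at 8.15 ± 0.483 and Tgfa at 6.55 ± 0.417 to Ereg, Egf and Epgn at 0.0442, 0.0272 and 0.00685. Hbegf was thus the second in WT and the fourth in KO. Areg, Btc, Tgfa and Hbegf did not overlap with their neighbours in this order in either genotype, while Epgn overlapped with both Ereg and Egf. Areg made up 86.6% ± 0.513 of the summed ligand level in KO and 74.9% ± 1.71 in WT, and Hbegf 2.92% ± 0.174 in KO and 10.6% ± 0.564 in WT (exact permutation p = 0.1 for each). The shares of Btc (5.99% ± 0.272 in KO and 8.02% ± 1.09 in WT) and Tgfa (4.40% ± 0.326 in KO and 6.42% ± 0.556 in WT) were lower in every KO library than in any WT library although both genes rose (exact permutation p = 0.1 for each). The summed ligand level was 571 ± 42.0 CPM per kb in KO and 103 ± 14.6 CPM per kb in WT, a ratio of 5.55 (exact permutation p = 0.1). With coding length the Areg share was 53.0% in KO and 35.2% in WT, so how far Areg leads depends on the length used, and Btc at 19.1% and Tgfa at 19.3% in KO were then about equal. With coding length the libraries of the genotypes overlapped in the Btc share, 19.1% in KO and 19.6% in WT (exact permutation p = 0.8), and in the Tgfa share, 19.3% in KO and 21.6% in WT (exact permutation p = 0.2).

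The 4 ligand genes on chromosome 5 form a cluster in the order Epgn, Ereg, Areg and Btc, beside a group of CXC chemokine genes. Ereg starts 65.0 kb before the start of Areg, and Btc starts 263 kb after it. Set against the chromosome 5 median, Areg kept a log2 fold change of 2.29 and Btc one of 1.67. Within 500 kb of these genes lie 10 other tested genes, of which 7 rose, 0 fell and 3 did not pass the test, with a median log2 fold change of 0.87. Of the 685 chromosome 5 genes with at least 5 CPM, 58.7% were called higher and 10.1% lower. Over all genes tested, the shares were 30.4% and 27%. The 10 neighbours were not cut at 5 CPM, and the 3 that did not pass lay below it. The count of neighbours and the chromosome 5 share are thus not of like sets. The nearest tested protein-coding genes at either side were Mthfd2l, an enzyme of mitochondrial folate metabolism, with a log2 fold change of 0.69 (edgeR adjusted p = 0.00212), and Parm1, with 0.88 (adjusted p = 9.97e-06). Both changes were smaller than those of Areg and Btc. The long noncoding RNA gene Gm19619, which lies between Areg and Btc, also rose, with 126 counts in KO against 3 in WT (adjusted p = 1.53e-04). Among the chemokine genes, Cxcl5 had 153 ± 25.0 CPM in KO and 1.12 ± 0.941 CPM in WT, a log2 fold change of 7.23, and Cxcl1 had 26.1 ± 1.14 CPM in KO and 7.97 ± 3.97 CPM in WT, one of 1.77. Ppbp, also in this group, had 612 counts in KO and 0 in WT (edgeR adjusted p = 3.59e-06). Cxcl2 had 0.419 ± 0.215 CPM in KO and 0.342 ± 0.184 CPM in WT and did not pass the test (adjusted p = 0.638). The 7 neighbours that rose did so by unequal amounts.

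**Figure D3:**
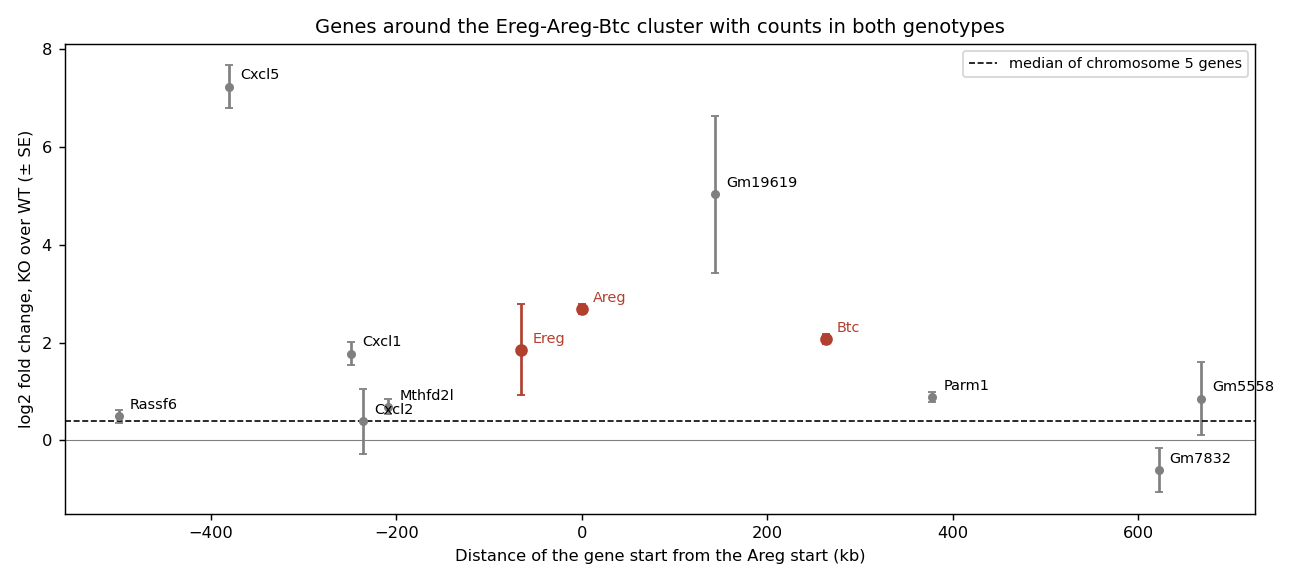
Log2 fold change of KO over WT with its standard error for tested genes around the ligand genes of chromosome 5, by distance in kb of the gene start from the start of Areg; the dashed line is the chromosome 5 median of 0.40. Areg and Btc lie above their nearest protein-coding neighbours Mthfd2l and Parm1, Gm19619 lies above Areg and Btc, and Cxcl5 lies highest. Ppbp, without a count in WT, is left out.

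Of the other genes of the family, Erbb4 and the neuregulin genes, only Nrg1 and Nrg4 were tested, and they moved in opposite directions. Nrg1, the gene of neuregulin 1, a ligand of ERBB3 and ERBB4, had 39.8, 36.6 and 45.6 CPM in the KO libraries, against 0, 0 and 0.0743 CPM in the WT libraries. The 2 counts in WT against 3652 in KO put the ratio at 1582, with 438 to 13069.6 as its 95% interval from counting (edgeR adjusted p = 1.57e-10). Both WT counts came from WT replicate 3. Nrg4, the gene of neuregulin 4, an ERBB4 ligand, had 0 counts in all KO libraries against 12, 24 and 46 counts in the WT libraries, at least 31.5-fold lower with the bound at 3 counts over the pooled KO libraries (adjusted p = 0.00183). Erbb4 and Nrg3 had 0 counts in all 6 libraries, which allows up to 0.145 CPM in a library, and Nrg2 had 17 counts in KO and 1 in WT and was not tested. The ligand gene Nrg1 was thus higher in the libraries in which Erbb3, its receptor gene, was lower.

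Genes that act before, at or after the receptors were counted in 9 lists of 101 genes, of which 96 were tested. Of these, 50 rose, 13 fell and 33 did not pass the test, with a median log2 fold change of 0.34. The shares over all genes tested were 30.4% called higher and 27% called lower, with a median of 0.00. Of the 10 tested genes for ligand release, 8 rose, 0 fell and 2 did not pass (median 0.76). The list holds metalloproteases, the iRhoms and their partner, and a rhomboid protease. Adam15 had 75.9 ± 4.29 CPM in KO and 27.6 ± 3.11 CPM in WT (2.75-fold, edgeR adjusted p = 1.42e-07). Frmd8, the gene of a binding partner of the iRhoms, had 123 ± 6.26 CPM in KO and 69.5 ± 5.57 CPM in WT (1.78-fold), and Rhbdl2, the gene of a rhomboid protease, 25.8 ± 1.35 CPM in KO and 12.0 ± 0.622 CPM in WT (2.14-fold). Adam17, the main sheddase of amphiregulin and TGF-alpha, had 110 ± 6.42 CPM in KO and 90.4 ± 10.1 CPM in WT (1.22-fold, adjusted p = 0.0215). Adam10, the main sheddase of EGF and betacellulin, had 254 ± 32.0 CPM in KO and 248 ± 5.90 CPM in WT and did not pass (adjusted p = 0.804), nor did Nrd1 (adjusted p = 0.999). Of 4 tested ligand trafficking genes, Cnih1 rose 1.23-fold, Ap1m2 fell 1.22-fold, and Cd9 and Muc4 did not pass (adjusted p = 0.591 and 0.0648). Muc4, a membrane mucin that binds ERBB2, had 22.3 ± 5.39 CPM in KO and 16.0 ± 5.37 CPM in WT.

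Of 15 genes that inhibit the receptors or serve their turnover, 7 rose, 3 fell and 5 did not pass (median 0.29). The shares over all genes tested were 30.4% called higher and 27% called lower. Lrig1, the gene of a membrane protein that limits ErbB receptor levels and marks intestinal stem cells in mice, had 101, 84.1 and 96.7 CPM in the KO libraries, against 532, 524 and 553 CPM in the WT libraries, and was 5.72-fold lower (edgeR adjusted p = 1.86e-10). The other 2 that fell were Lrig3, 2.44-fold, and Errfi1, the gene of the EGFR inhibitor MIG6, with 60.7 ± 3.99 CPM in KO and 77.2 ± 3.15 CPM in WT (adjusted p = 0.00412). Socs5 rose 2.11-fold and Sh3kbp1, the gene of a partner of the ubiquitin ligase CBL, rose 2.26-fold. Of 14 adaptor genes, 5 rose, 3 fell and 6 did not pass (median 0.14), close to the shares over all genes tested. Grb7, an adaptor that lies beside Erbb2 on chromosome 11, had 91.3 ± 7.72 CPM in KO and 197 ± 13.4 CPM in WT (2.16-fold lower, adjusted p = 3.52e-07). Eps8, the gene of an EGFR substrate, fell 2.02-fold and Plcg1, the gene of phospholipase C gamma 1, rose 1.90-fold.

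Of 13 genes of the Ras-ERK cascade, 6 rose, 1 fell and 6 did not pass (median 0.24). Among all genes tested, 30.4% were called higher and 27% lower. Hras rose 1.40-fold and Nras rose 1.32-fold (edgeR adjusted p = 0.00162 and 0.00188). Of 15 genes of the PI3K-Akt arm, 7 rose, 2 fell and 6 did not pass (median 0.33). Pik3r1, the gene of the regulatory subunit p85-alpha, fell 2.55-fold, and Inpp4b, the gene of a phosphoinositide phosphatase, had 56.5 ± 18.2 CPM in KO and 7.82 ± 1.05 CPM in WT (7.30-fold, adjusted p = 6.56e-07).

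Transcripts known to follow MEK activity were mostly higher: of 10, 8 rose, 1 fell and 1 did not pass (median 0.86). Ccnd1, the gene of cyclin D1, had 2018 ± 32.1 CPM in KO and 915 ± 23.3 CPM in WT (2.21-fold, edgeR adjusted p = 3.47e-08), and Etv4, a transcription factor gene, and Spry2, the gene of a feedback inhibitor, each rose 2.28-fold. Etv5 went the other way, with 4.73 ± 0.831 CPM in KO and 20.1 ± 5.81 CPM in WT (4.16-fold lower, adjusted p = 9.93e-06), and Spry4 did not pass. Of 13 immediate early transcripts, 7 rose, 1 fell and 5 did not pass (median 0.67). Fosl1, the gene of the AP-1 subunit FRA1, had 47.6, 56.6 and 52.6 CPM in the KO libraries, against 2.21, 2.37 and 2.08 CPM in the WT libraries (23.6-fold, adjusted p = 1.76e-10). The phosphatase genes Dusp5 and Dusp1 rose 15.4-fold and 6.86-fold. Jun fell 1.59-fold, and Fos, Fosb, Egr1, Ier2 and Myc did not pass. These counts stand beside 30.4% of all genes called higher and 27% called lower, and a median of 0.00.

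**Figure D4:**
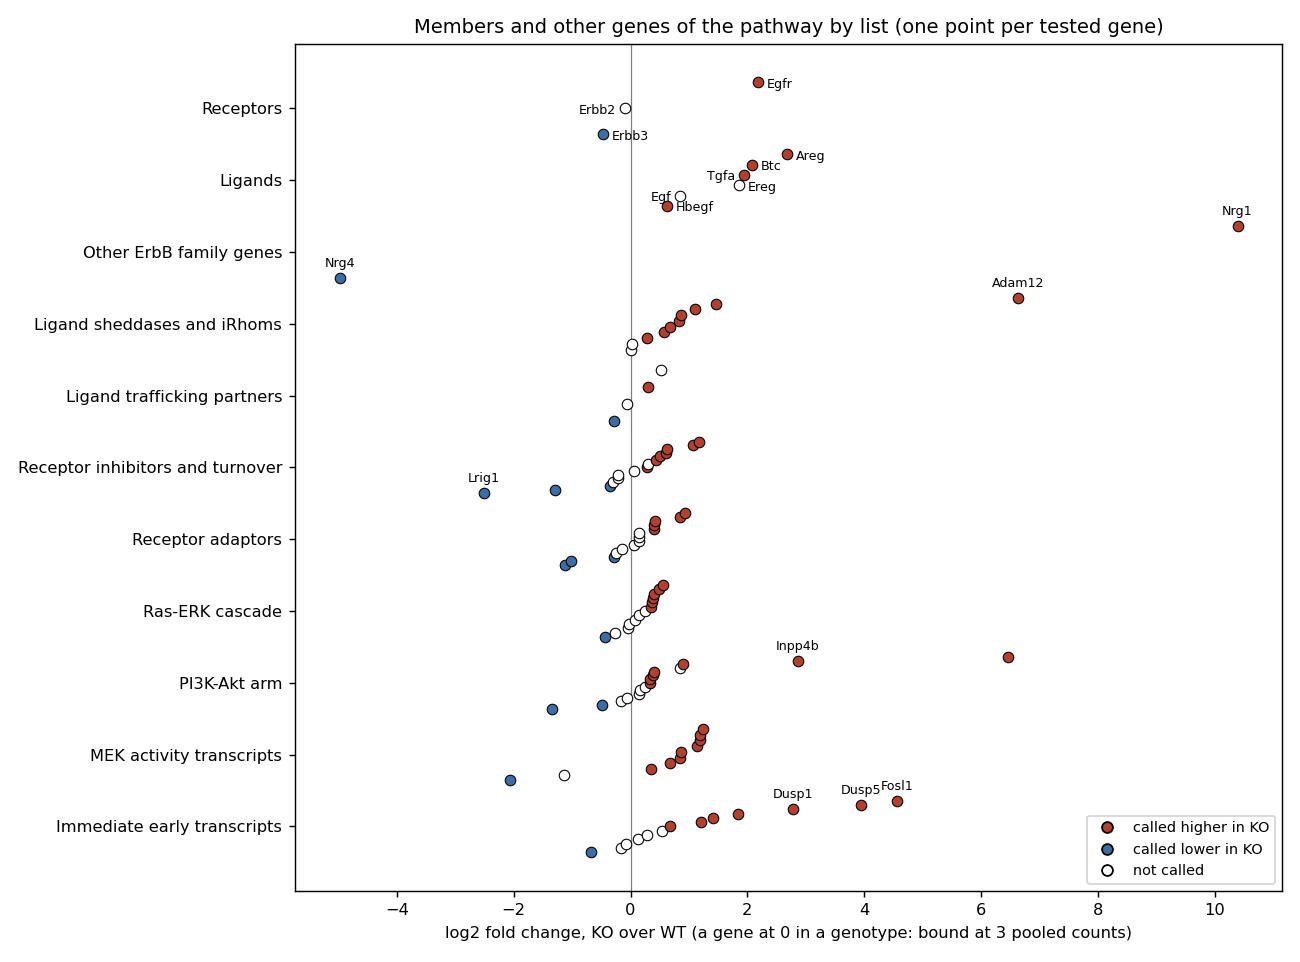
Fitted log2 fold change of KO over WT for each tested gene of the family and of the 9 pathway lists, 1 point per gene, red for genes called higher, blue for genes called lower and white for genes not called. The medians of the MEK activity list, the ligand release list and the immediate early list lie at 0.86, 0.76 and 0.67; Adam12 and Nrg4, with 0 counts in a genotype, are drawn at their bounds, and the fitted value of Nrg1 rests on 2 WT counts.

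Markers of cell types moved with the genotype as well, and their part in the results on the EGF receptor family was not tested. The 10 intestinal epithelial markers summed to 10406 to 12209 CPM in KO and 8153 to 8765 CPM in WT, with 4 higher and 5 lower. The 4 higher were the keratin genes Krt8, Krt18, Krt19 and Krt20, and Krt19 alone had 3967 CPM in KO and 1474 CPM in WT. The 5 lower were Cdx1, Cdx2, Epcam, Vil1 and Cldn7. Epcam had 411 CPM in KO and 915 CPM in WT, and Cdx2 had 20.6 CPM in KO and 193 CPM in WT. Cdx1, the gene of an intestinal transcription factor, had 0 counts in KO. The 12 Paneth cell markers summed to 5.78 to 16.0 CPM in KO and 601 to 793 CPM in WT, with all 11 tested lower. In KO 9 of the 12 were at 0, among them Defa20, which was not tested and had 0 counts in WT as well. The 12 squamous markers summed to 2226 to 2512 CPM in KO and 77.9 to 93.0 CPM in WT, with 10 of 11 tested higher, 3 at 0 in WT and the defining regulator Trp63 at 2 counts in KO and 5 in WT. Fibroblast markers summed to at most 1.17 CPM in KO and 18.2 CPM in WT, with 6 of 10 at 0 in each genotype and Col3a1, Dcn, Lum, Pdgfrb and Thy1 at 0 in all libraries. Of the 2 fibroblast markers tested, Col1a1 rose (59 counts in KO against 2 in WT) and Acta2 fell (11 counts in KO against 925 in WT). Leukocyte markers summed to 10.9 to 11.8 CPM in KO and 4.53 to 8.42 CPM in WT, with Cd3e, Adgre1, Cpa3 and Fcer1a at 0 in all libraries. Of the 3 leukocyte markers tested, Csf1r rose (974 counts in KO against 53 in WT), as did Ptprc (39 in KO against 2 in WT), and Kit fell (1 in KO against 376 in WT). Endothelial markers summed to at most 1.23 CPM in KO and 23.3 CPM in WT, with Kdr and Emcn at 0 in all libraries. Both endothelial markers tested fell, Tek with 25 counts in KO against 941 in WT and Vwf with 46 in KO against 600 in WT.

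The genes with profiles most like the most abundant receptor and ligand transcripts were found by the Euclidean distance of centred log2 CPM, with 0.5 added to each CPM, over the 6 libraries, among 10374 genes with at least 5 CPM. Genes so chosen change much as Erbb2 or Areg do, so their calls and fold changes follow from the choice. Nearest to Erbb2, at distances of 0.0443 to 0.0559, were Fkbp15, Nap1l4 and Actr8, none of which passed the test. Nearest to Areg were Ahnak2 at 0.148, Dusp1 at 0.187 and Pmepa1 at 0.189. Ahnak2 had 32.8 ± 1.46 CPM in KO and 4.62 ± 0.825 CPM in WT (7.21-fold), and Pmepa1, the gene of a transmembrane protein, 345 ± 17.2 CPM in KO and 51.3 ± 5.97 CPM in WT (6.73-fold).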

How the data were processed

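RNA-seq was done on 3 KO and 3 WT tumoroid libraries. Per the labels' protocols, total RNA was extracted and polyA-selected stranded libraries were made. STAR and GRCm38 are the aligner and the build that the submitters' processing notes name. Not given in the sources used here are the counter, its strand setting, how multimapping reads were treated and the annotation release. The authors deposited raw counts in whole numbers for each Ensembl gene, 20749747 to 31875723 per library. GENCODE for GRCm38 named 49326 of 49585 identifiers and gave exon and coding lengths.

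Libraries were grouped by the genotype in the labels. No pair agreed within sampling noise (chi-square per degree of freedom 5.64 or more), so all 6 were kept. Counts were tested with the quasi-likelihood test of edgeR 4.0.16 (R 4.3.3) on genotype alone, with TMM scaling. The filterByExpr filter (minimum count 10, minimum total 15) left 13759 genes to test. P-values were adjusted by Benjamini-Hochberg over all of them, threshold 0.05. Standard errors came from the negative binomial weights of the fit, with the dispersion divided by the average quasi-likelihood dispersion. The variances were then multiplied by the quasi-likelihood dispersion of each gene. Where a genotype had 0 counts, a fold change was bounded with 3 counts pooled over its libraries. Intervals of count ratios and floors cover counting error only. Exact permutation tests were run with scipy 1.17.1.

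The 10 family genes and the lists were chosen with earlier results of these data known. Named were these genes, Chuk, up to 3 genes per list with the smallest adjusted p, the 3 profiles nearest to the most abundant receptor and ligand, and, for counts of 5 or fewer, any member; a few genes so chosen are not reported here. Cxcl5, Cxcl1, Cxcl2, Ppbp, Gm19619, Mthfd2l, Parm1, Adam12, Adam17 and the marker genes singled out lie outside that rule or were singled out with their values in view. Alternatives were other scalings (DESeq2 1.42.0 size factors, upper quartile, library size), other filters, the DESeq2 Wald test, limma 3.58.1 voom, protein-coding genes only, a term for the replicate number, coding length, the chromosome median and leaving out each library. The legacy edgeR fit was chosen after seeing the data. The test was checked on simulated data in which a far smaller share of genes changed than was called here. No chromosome was shifted in it, so it does not check the scaling under changes this common.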

Additional observations from a re-analysis of the deposited data

How the results depend on the processing

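Egfr, Areg, Btc, Tgfa, Hbegf and Erbb3 kept their call and direction under all 16 alternative fits, and these 6 genes were the same in each. Their log2 fold changes ranged over 2.07 to 2.34 for Egfr, 2.62 to 2.82 for Areg, 2.01 to 2.13 for Btc, 1.89 to 2.02 for Tgfa, 0.51 to 0.75 for Hbegf and -0.56 to -0.40 for Erbb3. Ereg, at 1.16 to 3.33, passed the threshold in 2 alternatives, with limma voom and without WT replicate 2, and Egf ran over 0.24 to 1.72; both were dropped by the filter of 1 CPM. Muc4 passed in 5 of 16. Set against their chromosome, Areg, Btc and Ereg moved to 2.29, 1.67 and 1.45. Over all genes, leaving out 1 library gave 3788 to 4477 calls higher and 3289 to 4422 lower, and no alternative moved either count by 1.5 times. The pathway lists gave 44 to 59 genes higher and 13 to 15 lower. The replicate numbers did not pair the libraries (deviations of same-numbered libraries correlated at 0.11, -0.11 and -0.19); a replicate block gave 3959 genes higher and 3473 lower, and 5 and 1 of the family genes. With coding length, the Areg share was 53.0% in KO and 35.2% in WT and the Egfr share 44.7% in KO and 13.2% in WT; the cause is the different length, since the counts are the same. Depth limits Egf, Ereg and Epgn, which had at most 22 counts in any library.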
